A study of Mus musculus with 134 samples.

Results

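The genes of the H3K4 methyltransferase complexes were followed through the expression libraries of mouse embryonic stem cells (mESCs). They are 10 of the 25209 genes in the bulk count files and of the 18817 genes in the single-cell matrices, and they were taken by name, without regard to their values. The catalytic subunits are Kmt2a, Kmt2b, Kmt2c, Kmt2d, Setd1a and Setd1b, and the shared core subunits are Wdr5, Ash2l, Rbbp5 and Dpy30.

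Methylation of lysine 4 of histone H3 marks active regulatory DNA. The Setd1 enzymes and Kmt2b are known for trimethylation at promoters, and Kmt2c and Kmt2d for monomethylation at enhancers. Each catalytic subunit is active when bound to the core, in which Wdr5 and Rbbp5 contact the enzyme, Ash2l pairs with Rbbp5 and stimulates it, and Dpy30 binds to Ash2l as a dimer. In mESCs these complexes stand opposite Polycomb Repressive Complex 2 (PRC2), of which Aebp2 is an accessory subunit and which deposits H3K27me3.

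All libraries were labelled as mESCs of the E14 line (strain 129/Ola), grown with serum and LIF on gelatin without feeder cells. The bulk expression data are 54 libraries, 2 for each of 27 conditions. In vitro, total RNA was reverse transcribed with oligo-dT and the mRNA/cDNA hybrid was cut by the Tn5 transposase at 16 °C or 37 °C for 5, 10, 15 or 30 min, with 25, 50 or 100 ng/µl of Tn5, or from 300 ng, 3 ng or 30 pg of RNA. A pair of conventional libraries was made by adapter ligation from poly-A RNA of untreated cells. SET-seq, which separates the cytoplasmic RNA of lysed cells from the nuclei, was run without antibody on 10, 100, 1000 and 10000 cells, and as a co-assay with an H3K4me3 or an H3K27me3 antibody on 100, 1000 and 10000 cells. The last libraries are H3K27me3 co-assays of 2 Aebp2 knockout clones (KO1 and KO2), which came from different guides, with 2 experiments per clone. The labels give no cell number for these knockout libraries and name no wild type for them, so the H3K27me3 co-assay of 10000 untreated cells was taken as WT here. The single cells are 752 daughters of mESCs that divided beside Wnt3a-coated beads for 12 h, picked as proximal or distal to the bead, in 10 H3K27me3 and 6 H3K4me3 experiments.

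Levels are given as CPM, counts scaled to 1000000 per library, without the ribosomal precursor gene Rn45s. Libraries held between 188275 and 16888686 counts without it. Rn45s itself held 1.54% to 1.96% of counts with ligation, 48.8% to 56.7% in the knockout clones and up to 84.6% with 3 ng of RNA. Where groups of libraries are said to overlap or not, this describes the named gene alone. The share of all genes without overlap was not counted, and with 2 libraries per group unchanged genes often separate by chance. The summed level of 8 pluripotency markers was 3505 to 8536 CPM in all 54 libraries, against at most 28.8 CPM for 6 feeder markers, with Lum at 0 counts in 51 libraries and Col3a1 in 42, and at most 37.1 CPM for 5 primitive endoderm markers. The summed mesoderm and neural markers reached 164 CPM, and the highest level of T in any library was 111 CPM. One property separated libraries that share a label. E14TG2a is known for a deletion in Hprt, and Hprt was at most 1.29 CPM in all in vitro libraries and 2.14 CPM in the knockout clones, but 66.2 to 485 CPM in SET-seq and co-assay libraries and 181 to 184 CPM in ligation-based ones. The ferritin gene Ftl1 split them the same way, with 0 to 2.14 CPM in the knockout clones and 4704 to 7206 CPM in the co-assays. A difference of cell stock and the condition compared cannot be told apart in any comparison across these sets. Among them are KO against WT, in vitro against ligation, and cytoplasmic SET-seq against in vitro total RNA.

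The core genes were the more abundant transcripts per length. On the RPKM scale, which divides CPM by the exon length in kilobases, the medians of the levels over 27 conditions were 227 for Dpy30, 149 for Wdr5, 88.3 for Ash2l and 23.8 for Rbbp5. Kmt2b, an H3K4 trimethylase of promoters, led the catalytic genes with a median of 15.97 RPKM. It was followed by Setd1a with 10.7, Kmt2d with 6.97, Kmt2a with 6.47, Kmt2c with 3.69 and Setd1b with 2.56 RPKM. Dpy30 was the highest member in 20 conditions, Wdr5 in 6 and Ash2l in 1, while Setd1b was the lowest in 17 and Kmt2a in 6. In 65 of 243 neighbouring pairs of this order, the 2 libraries of one gene overlapped those of the next. All 4 core genes lay above all 6 catalytic genes in 19 conditions. The exception was always Rbbp5, which fell below a catalytic gene in the other 8, among them both knockout clones and the 3 Tn5 amounts.

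In ligation-based RNA-seq the order was different at the top. Ash2l had 183 ± 1.7 RPKM (SD, n = 2), Wdr5 174 ± 2.3 and Dpy30 153 ± 4.0. Rbbp5 with 37.002 ± 1.6 and Setd1a with 36.3 ± 1.6 RPKM overlapped. The others were Kmt2b with 26.5 RPKM, Kmt2a with 9.45 and Kmt2d with 9.44, which overlapped, Kmt2c with 7.99 and Setd1b with 6.62. In SET-seq of 10000 cells Kmt2a and Kmt2c ended the order with 2.88 and 1.81 RPKM, below Setd1b with 5.17. Kmt2d was the highest catalytic gene in both knockout clones and lay above Rbbp5 in both, with 39.7 ± 4.1 RPKM (SD, n = 2) against 23.8 in KO1 and 31.1 ± 1.5 against 25.3 in KO2.

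**Figure D1:**
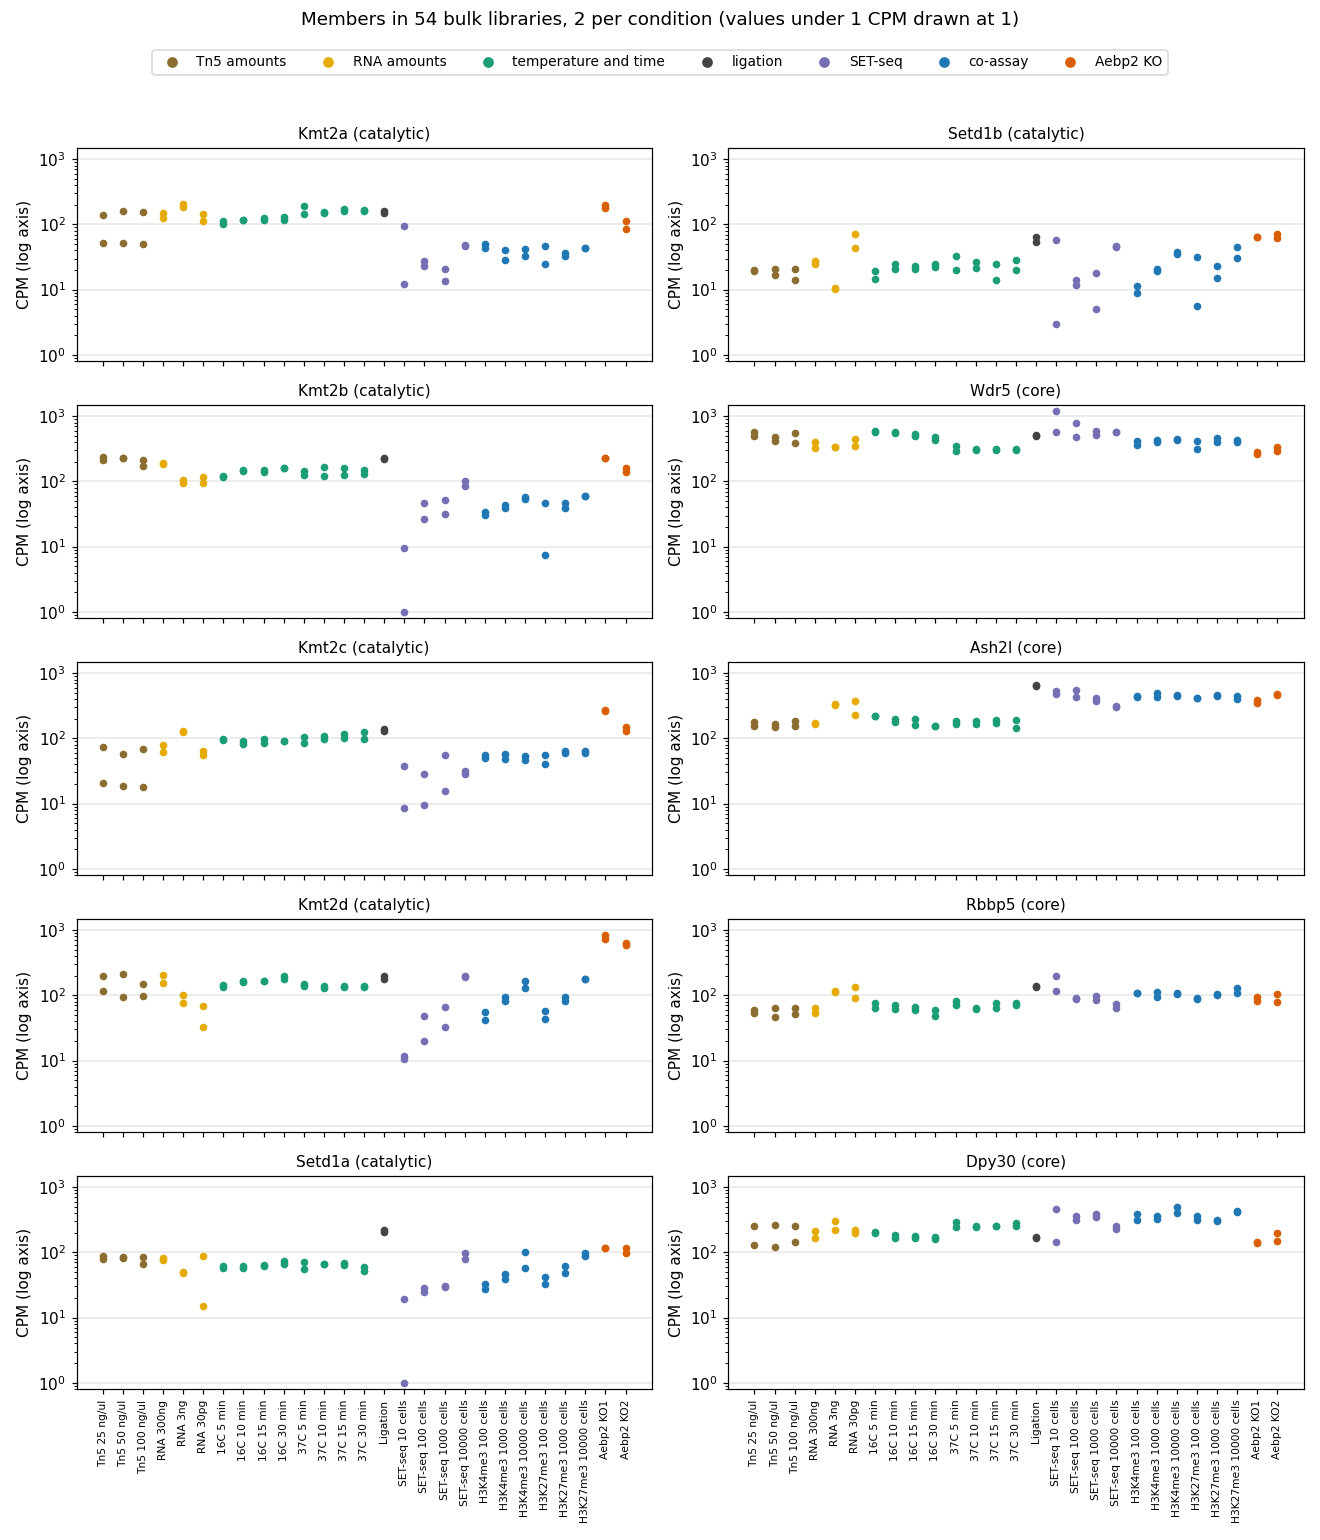
CPM (log axis) of each member in all 54 bulk libraries, 2 points per condition, coloured by series, with values under 1 CPM drawn at 1. The catalytic genes span wide ranges, from 0 counts for Kmt2b and Setd1a in 1 SET-seq library of 10 cells to 844 CPM for Kmt2d in KO1, while Wdr5 and Ash2l stay above 100 CPM in all libraries.

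The catalytic genes varied more between conditions than the core genes. Kmt2b ranged from a mean of 4.74 CPM in SET-seq of 10 cells to 229 CPM in KO1, with a median of 135 over conditions. Kmt2d ranged from 11.3 CPM in SET-seq of 10 cells to 787 CPM in KO1. Setd1a ranged from 9.75 CPM there to 215 CPM in ligation-based RNA-seq. For the core genes the extremes lay closer together, at 273 CPM in KO1 and 888 CPM in SET-seq of 10 cells for Wdr5, and at 156 CPM after 30 min at 16 °C and 644 CPM in ligation-based RNA-seq for Ash2l. Rbbp5 reached from 54.6 to 156 CPM and Dpy30 from 141 to 442 CPM. Kmt2b and Setd1a each had 0 counts in 1 library, SET-seq of 10 cells with 188275 counts, where 3 counts are 15.9 CPM.

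Over the 27 conditions, which share RNA preparations and differ in depth, the levels of Ash2l and Rbbp5, which bind each other in the core, had a Pearson r of 0.88 on log2(CPM + 1). Kmt2d and Setd1a had 0.86, Kmt2b and Setd1a 0.86, and Kmt2a and Kmt2c 0.76. The lowest values were -0.69 for Kmt2a with Dpy30 and -0.69 for Kmt2c with Wdr5. Outside the members, among 8737 genes with a mean of at least 10 CPM, the mean profile of the catalytic genes was most like those of Baz2a (r = 0.944), Ssh1 (0.937) and Kdm2a (0.925). The mean core profile was most like those of Ptcd3 (0.953), Zfp35 (0.941) and Vps36 (0.930).

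The members differ in the make-up of their exons, which the choice of members did not use. In mm9 the exons of Kmt2b, Setd1b, Kmt2d and Setd1a are 59.1%, 59.0%, 58.4% and 57.1% G and C, above those of at least 87.0% of genes. Kmt2a and Kmt2c have 50.6% and 46.4%, and the core genes range from 47.3% for Rbbp5 to 51.6% for Wdr5. Exon lengths run from 1108 bases for Dpy30 to 19827 for Kmt2d, and the 4 core genes, with up to 3690 bases, are all shorter than the shortest catalytic gene, Setd1a with 5931. The genes lie on 8 chromosomes: Kmt2a at chr9:44611438-44689372, Kmt2b at chr7:31353874-31373745, Kmt2c at chr5:24777613-25004601, Kmt2d at chr15:98662100-98701636, Setd1a at chr7:134920903-134943633, Setd1b at chr5:123592202-123618639, Wdr5 at chr2:27370667-27392055, Ash2l at chr8:26926473-26958166, Rbbp5 at chr1:134373944-134402242 and Dpy30 at chr17:74698814-74723284. Their exons share 0 bases with other genes of the annotation.

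To show the difference in base composition, the middle 150 bases of the longest coding exon of the 4 Kmt2 genes follow, read from the NCBIM37 genome (mm9) on the minus strand, 5′ to 3′. Capitals mark G and C. The windows are chr9:44628409-44628558 for Kmt2a (48.0% G and C), chr5:24820670-24820819 for Kmt2c (46.0%), chr7:31370955-31371104 for Kmt2b (61.3%) and chr15:98675426-98675575 for Kmt2d (56.0%).
Kmt2a: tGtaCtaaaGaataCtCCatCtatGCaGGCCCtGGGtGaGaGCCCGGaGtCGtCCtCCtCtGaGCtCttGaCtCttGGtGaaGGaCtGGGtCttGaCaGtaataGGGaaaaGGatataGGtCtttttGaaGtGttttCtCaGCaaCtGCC
Kmt2c: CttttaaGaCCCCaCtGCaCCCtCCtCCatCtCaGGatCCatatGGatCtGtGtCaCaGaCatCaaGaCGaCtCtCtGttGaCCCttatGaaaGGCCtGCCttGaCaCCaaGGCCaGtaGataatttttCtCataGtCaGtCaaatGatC
Kmt2b: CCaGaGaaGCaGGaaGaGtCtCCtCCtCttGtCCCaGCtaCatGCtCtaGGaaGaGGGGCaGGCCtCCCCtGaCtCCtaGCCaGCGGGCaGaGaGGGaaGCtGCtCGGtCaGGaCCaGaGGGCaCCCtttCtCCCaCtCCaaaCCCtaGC
Kmt2d: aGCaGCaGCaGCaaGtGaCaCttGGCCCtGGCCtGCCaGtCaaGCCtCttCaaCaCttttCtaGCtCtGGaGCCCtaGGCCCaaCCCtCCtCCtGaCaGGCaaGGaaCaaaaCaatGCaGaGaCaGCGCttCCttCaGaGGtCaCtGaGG

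All 6 catalytic genes were higher in the Aebp2 knockout clones than in WT, and 2 core genes were lower. Aebp2, the targeted gene, had 15.7 and 15.0 CPM in KO1, 49.7 and 30.2 in KO2, and 65.5 and 76.0 in WT, a log2 fold change of -1.39 for both clones against WT (SE 0.22, adjusted p = 7.64e-06, edgeR). Every knockout library lay below both WT libraries, with KO1 lowest, and transcript remained in both clones. For KO2 this depended on the libraries taken as WT. Untreated SET-seq of 10000 cells had 34.5 and 36.4 CPM and the H3K27me3 co-assay of 100 cells 38.9 and 34.7, within the KO2 values. The H3K4me3 co-assay of 10000 cells, with 55.7 and 64.7, lay above both clones.

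Kmt2d, an enhancer H3K4 monomethylase, had 844 and 729 CPM in KO1, 596 and 638 in KO2, and 179 and 180.5 in WT. Kmt2c, its paralog, had 271 and 262 CPM in KO1, 129 and 152 in KO2, and 63.0 and 60.7 in WT. For both, every knockout library lay above both WT libraries. The log2 fold changes were 2.10 for Kmt2d (SE 0.12, adjusted p = 3.17e-13) and 1.80 for Kmt2c (SE 0.14, adjusted p = 2.48e-10) by edgeR's quasi-likelihood test with Benjamini-Hochberg adjustment.

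Kmt2a, known for keeping Hox genes active, had 177 and 198 CPM in KO1, 112 and 86.3 in KO2, and 42.8 and 44.1 in WT. Kmt2b had 229.6 and 228 CPM in KO1, 161 and 141 in KO2, and 60.6 and 60.4 in WT. The groups did not overlap for either gene, and the log2 fold changes were 1.78 (SE 0.17, adjusted p = 3.08e-09) and 1.76 (SE 0.14, adjusted p = 3.06e-10). Setd1b had 63.8 and 64.2 CPM in KO1, 72.6 and 62.3 in KO2, and 45.3 and 30.6 in WT, which did not overlap, with a log2 fold change of 1.00 (SE 0.20, adjusted p = 0.000189). Setd1a, its paralog, had 118 and 117 CPM in KO1, 96.4 and 115 in KO2, and 87.3 and 97.6 in WT. These overlapped, and the log2 fold change was 0.40 (SE 0.15, adjusted p = 0.0266).

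Among the core genes, Dpy30 had 144 and 138 CPM in KO1, 197 and 147 in KO2, and 429 and 409 in WT. It fell by 1.28 on the log2 scale (SE 0.12, adjusted p = 1.99e-09), with no overlap. Wdr5, which docks the complexes on the histone tail, had 284 and 262 CPM in KO1, 289 and 343 in KO2, and 403 and 439 in WT, also without overlap, and fell by 0.38 (SE 0.11, adjusted p = 0.00498). Ash2l had 388 and 349, 456 and 479, and 451 and 403 CPM, a log2 difference of 0.11 (adjusted p = 0.384) with overlap. Rbbp5 had 81.4 and 94.1, 106 and 80.1, and 128 and 108 CPM, a log2 difference of -0.23 (adjusted p = 0.219).

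**Figure D2:**
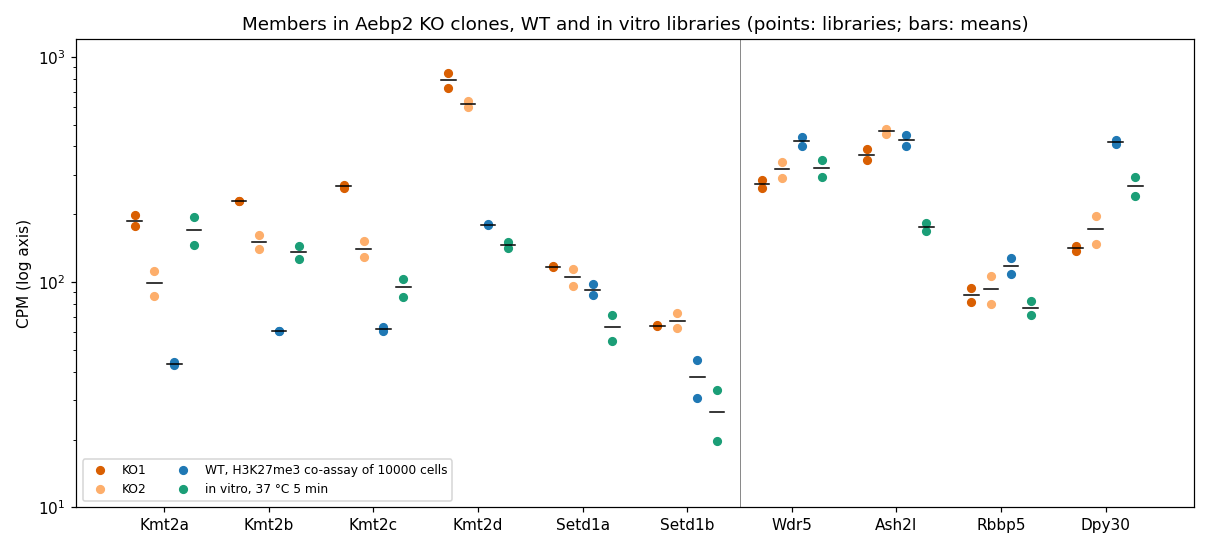
CPM (log axis) of the members in KO1, KO2, WT (H3K27me3 co-assay of 10000 cells) and the in vitro libraries of 37 °C and 5 min, with points for libraries and bars for means of 2 libraries. The knockout points of Kmt2a, Kmt2b, Kmt2c and Kmt2d lie above those of WT, and those of Dpy30 below, while the in vitro points of Kmt2a reach 194 CPM, as high as the knockout.

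The ratio of summed catalytic to summed core CPM was 1.90 and 1.90 in KO1 and 1.11 and 1.14 in KO2, against 0.339 and 0.349 in WT. Across the other series it was 0.0380 to 0.440 in SET-seq, 0.152 to 0.349 in the co-assays, 0.636 to 0.706 in ligation-based RNA-seq and 0.345 to 1.04 in vitro, so both clones lay above every other library. In all, 8 of the 10 members passed an adjusted p below 0.05, against 57.3% of the 9523 genes tested, of which 27.8% were higher and 29.5% lower. The median log2 fold change was 1.77 for the catalytic genes and -0.30 for the core genes, beside -0.02 for all genes tested. By the study's own rule (unadjusted P below 0.05 and an absolute log2 fold change above 1) 6 members differed, 5 higher and 1 lower, where 30% of genes did (13.8% higher and 16.2% lower). Long genes moved with this result. Of 610 genes tested with at least 8000 exon bases, 391 were higher and 34 lower in the knockout, with a median of 0.91, and over the 10 members the rank correlation of fold change with exon length was 0.98, beside 0.47 over all genes. Other values moved with the knockout as well. Of 8 pluripotency markers 4 were lower, with summed levels of 3505 to 4059 CPM against 5443 and 5543 in WT. Of 5 mesoderm and neural markers, 1 could be tested and was higher (2.04), and their sum was 103 and 118 CPM in KO1 and 34.8 and 37.4 in KO2, against 31.5 and 28.8 in WT. Rn45s held 48.8% to 56.7% of counts in the knockout and 21.9% to 23.4% in WT. The part of transcript length, of these markers and of Rn45s in the result was not tested.

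Of 12 other subunits of these complexes, 5 were higher in the knockout: Bod1l, a Setd1-associated protein (log2 fold change 2.07), Hcfc1, a scaffold of the Setd1 and Kmt2 complexes (1.29), Ncoa6 of the Kmt2c and Kmt2d complexes (1.11), Psip1, which tethers Kmt2a to chromatin (0.61), and Wdr82, a Setd1 subunit (0.34). A pair was lower, Bod1 (-1.39) and Pagr1a (-0.68), and the median was 0.36. In all, 7 of the 12 passed, where 57.3% of the 9523 genes tested did, 27.8% higher and 29.5% lower. Of 3 SET-domain methyltransferases outside the complexes that could be tested, Ash1l (1.58) and Smyd3 (1.02) were higher.

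With the KO libraries set against in vitro libraries, where Hprt and Ftl1 are low too (an alternative chosen after seeing the data), the catalytic differences changed. The in vitro libraries hold total RNA and the knockout libraries cytoplasmic RNA, so the knockout and the RNA fraction cannot be told apart here. Against the 37 °C and 5 min libraries, Kmt2a had a log2 difference of -0.31, while 7 members differed where 48.5% of genes did. The number was 7 against the 300 ng RNA libraries (68.8% of genes) and 9 against the 16 libraries of temperature and time (69.5% of genes), and Kmt2a did not pass higher in the knockout in any of the 3. Kmt2d kept log2 fold changes of 2.28 and 1.81 and Kmt2c of 1.05 and 1.34 against the 37 °C and 5 min and the 300 ng libraries, and all 4 passed. Kmt2b turned to -0.16 against the 300 ng libraries, and Wdr5 no longer passed against those of 37 °C and 5 min (-0.10, adjusted p = 0.583). Ash2l, not called against WT, was higher in the knockout against all 3, with 1.26 (adjusted p = 9.22e-09), 1.16 (adjusted p = 1.38e-08) and 1.23 (adjusted p = 1.43e-16) in the order given. With other untreated cells as WT, 8 members passed against the H3K27me3 co-assay of 1000 cells (62.2% of genes), 8 against the H3K4me3 co-assay of 10000 cells (57% of genes) and 6 against SET-seq without antibody (67.6% of genes). Taken alone, KO1 differed from WT in 8 members, where 53.9% of genes did, and KO2 in 7, where 47.6% did. In KO2 alone Setd1a (0.38, adjusted p = 0.0811) and Wdr5 (-0.22, adjusted p = 0.164) did not pass, and Ash2l passed as higher (0.33, adjusted p = 0.0263). The call of Setd1a was lost in 9 of 18 alternatives, with adjusted p up to 0.346 (SET-seq of 10000 cells as WT), among them DESeq2 (adjusted p = 0.0959), no filter (adjusted p = 0.267) and either WT library left out (adjusted p = 0.239 and 0.112). That of Setd1b was lost with SET-seq as WT (0.38, adjusted p = 0.0924). The calls of Setd1b (log2 fold change 0.67, adjusted p = 0.0741) and Wdr5 (-0.32, adjusted p = 0.134) were lost without the second WT library.

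The 2 clones differed from each other in 4 members. KO1 was higher than KO2 for Kmt2a (log2 fold change 0.82, SE 0.18, adjusted p = 0.00393), Kmt2c (0.82, SE 0.15, adjusted p = 0.00117) and Kmt2b (0.50, SE 0.15, adjusted p = 0.0341), and lower for Ash2l (-0.45, SE 0.13, adjusted p = 0.0218). As the CPM above show, the 2 libraries of KO1 and the 2 of KO2 did not overlap for these genes. With so few libraries this is common by chance, and its share over all genes was not counted. Kmt2d did not overlap either, but its difference of 0.25 did not pass (adjusted p = 0.187). Setd1a (0.04), Setd1b (-0.17), Rbbp5 (-0.18), Wdr5 (-0.32) and Dpy30 (-0.38) did not pass. Of all genes, 11.8% differed between the clones, 5.88% higher and 5.89% lower in KO1. By the study's rule 0 members differed, where 6.97% of genes did. The median was 0.37 for the catalytic and -0.35 for the core genes, beside -0.01 for all genes, and 113 long genes were higher and 8 lower in KO1. Aebp2 itself was lower in KO1 (-1.46, adjusted p = 0.00561). This contrast uses the same knockout libraries as KO against WT. The call of Kmt2b was lost in 8 of 10 alternatives, among them DESeq2 (adjusted p = 0.101) and the replicate block (adjusted p = 0.0647). Without the second KO1 library those of Kmt2a (0.73) and Ash2l (-0.37) were lost as well. Without the first KO1 library the calls of Kmt2b (0.51) and Ash2l (-0.52) were lost.

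The temperature of tagmentation moved single members in both directions. Wdr5 was lower at 37 °C, with 292 to 349 CPM (median 310.4, 8 libraries), than at 16 °C, with 428 to 589.8 CPM (median 540.0, 8 libraries). Dpy30 was higher at 37 °C, with 241 to 293 CPM (median 255) against 161 to 204 (median 176). Kmt2a was higher too, with 146 to 194 CPM (median 161) against 103 to 131 (median 118). For these 3 genes the groups did not overlap, and the log2 fold changes of 37 °C against 16 °C were -0.70 for Wdr5 (SE 0.06, adjusted p = 6.35e-12), 0.58 for Dpy30 (SE 0.06, adjusted p = 3.89e-10) and 0.51 for Kmt2a (SE 0.06, adjusted p = 4.26e-08). Kmt2c, with 86.2 to 126 CPM (median 102) against 83.4 to 97.6 (median 91.5), overlapped and had a log2 fold change of 0.25 (SE 0.07, adjusted p = 0.00260). Kmt2d, with 132 to 151 CPM (median 138) against 134 to 196 (median 164), overlapped and had one of -0.21 (SE 0.07, adjusted p = 0.00685). In all, 5 of 10 members passed, where 61.1% of 12297 genes did, 30.1% higher and 31% lower at 37 °C. The other 5, Kmt2b, Setd1a, Setd1b, Ash2l and Rbbp5, had differences from -0.02 to 0.16. In the 5 min libraries alone 3 members passed, where 30.8% of genes did, and Kmt2d had a difference of 0.16 and Kmt2c one of 0.07, and neither passed. Of the other subunits 9 of 12 passed, 4 higher, led by Psip1 (1.73) and Bod1l (0.71), and 5 lower, led by Hcfc1 (-0.84) and Bod1 (-0.50).

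Between tagmentation for 30 min and for 5 min, the largest differences of members were those of Kmt2b, Setd1b and Kmt2d, which did not pass the test. Kmt2b had 129 to 162 CPM (median 156, 4 libraries) after 30 min and 116 to 145 CPM (median 122, 4 libraries) after 5 min, which overlapped, with a log2 difference of 0.35 (adjusted p = 0.0506). Setd1b, with 19.98 to 28.3 CPM (median 23.5) and 14.7 to 33.1 CPM (median 19.4), overlapped too, with a difference of 0.34 (adjusted p = 0.316). Kmt2d had 133 to 196 CPM (median 159) and 134 to 151 CPM (median 142), with a difference of 0.29 (adjusted p = 0.0664). By edgeR 0 members passed, 3 members (Kmt2b, Kmt2d and Ash2l) of 2749 genes had an unadjusted p below 0.05, and DESeq2 called 1 (Kmt2d), where 7.21% of all genes passed by edgeR. Without the second library of 37 °C and 30 min these 3 members passed, and without the first library of 37 °C and 5 min Kmt2b and Kmt2d did.

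Between 100 and 25 ng/µl of Tn5, 0 members and 0% of 13177 genes passed by edgeR and 0 by DESeq2, and 0 members and 84 genes had an unadjusted p below 0.05. The replicates differed by more than the amounts did. Kmt2a had 140.1 and 52.6 CPM with 25 ng/µl, 161 and 52.2 with 50 ng/µl and 157 and 50.7 with 100 ng/µl, and Kmt2c 73.7 and 20.4, 56.9 and 18.5, and 68.6 and 18.0 CPM. For both, the first replicate was the high one in every amount. Dpy30 went the other way, with 131 and 254, 119 and 265, and 144 and 258 CPM. Kmt2b, with 211 and 239.7, 229 and 225, and 175 and 211 CPM, showed no such split. The differences of all members between the amounts ranged from -0.29 (Kmt2d) to 0.17 (Kmt2a) on the log2 scale, and on simulated data of this comparison only 24% of genes with a 4-fold change passed.

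From 3 ng of RNA the members with GC-rich exons had lower CPM than from 300 ng, and most of those with fewer G and C had higher CPM, before any test. Kmt2b had 193 and 186 CPM from 300 ng of RNA and 106 and 95.5 from 3 ng. Kmt2d had 155 and 209 against 76.0 and 102 CPM, Setd1a 76.0 and 82.1 against 50.5 and 48.3, and Setd1b 24.7 and 27.4 against 10.2 and 10.6. All 4 genes were lower in both 3 ng libraries. Ash2l was higher in both, with 335 and 324 CPM from 3 ng against 166 and 174 from 300 ng, as were Rbbp5 with 117 and 114 against 64.1 and 52.9, Kmt2c with 125 and 132 against 79.3 and 61.8, and Kmt2a with 184 and 209 against 148 and 127. Wdr5, with 342 and 334 against 323 and 409 CPM, overlapped.

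In the fit of all 6 libraries of RNA amounts, 0 members and 0% of 10753 genes passed between 3 ng and 300 ng by edgeR, 4 members and 1558 genes had an unadjusted p below 0.05, and DESeq2 called 3 members and 822 genes. The log2 differences were -1.42 for Setd1b, -1.13 for Kmt2d, -1.01 for Kmt2b and -0.77 for Setd1a, and 0.89 for Rbbp5, 0.86 for Ash2l, 0.77 for Kmt2c and 0.42 for Kmt2a. On simulated data of this fit, 0% of genes with a 4-fold change passed. Without the 30 pg libraries, an alternative chosen after seeing the data, 8 members passed where 52.6% of genes did. They were Setd1b (-1.43, adjusted p = 0.000159), Kmt2d (-1.13, adjusted p = 1.31e-05), Kmt2b (-1.02, adjusted p = 1.91e-05), Setd1a (-0.78, adjusted p = 0.00145), Rbbp5 (0.88, adjusted p = 0.000229), Ash2l (0.85, adjusted p = 7.41e-05), Kmt2c (0.77, adjusted p = 0.000915) and Kmt2a (0.41, adjusted p = 0.0459). The rank correlation of these differences with exon GC content, in the fit of 6 libraries, was -0.88 over the members and -0.75 over all genes. Rn45s took 78.5% to 84.6% of the counts of the 3 ng libraries and 17.4% to 18.2% of those of the 300 ng libraries. The part of either in the result was not tested.

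With 30 pg, about the RNA of a single cell, the replicates spread apart. Setd1a had 14.9 and 86.6 CPM, Kmt2d 32.4 and 68.0, Kmt2b 117 and 95.8 and Ash2l 376 and 232. The order by GC content at 3 ng was not repeated. Setd1b, rich in G and C, had 43.0 and 71.1 CPM, above both 300 ng libraries (log2 difference 0.83, adjusted p = 0.389). Kmt2a (-0.39) and Kmt2c (-0.47), with fewer G and C, had negative differences that did not pass. Kmt2d (log2 fold change -2.21, SE 0.43, adjusted p = 0.0222) and Kmt2b (-1.07, SE 0.27, adjusted p = 0.0455) fell against 300 ng and did not overlap with it. They are 2 of 10 members, where 22.7% of genes passed and 20.6% were lower, and the median of all genes was -0.44. Both calls were lost with the replicate block (adjusted p = 0.0712 and 0.0794). This comparison shares its 300 ng libraries with the one before. Both were also lost without either 300 ng library, with 1 library left in that group (Kmt2d -2.42 and -1.97, adjusted p = 0.142 and 0.160), and without either 3 ng library. Without the first 30 pg library the difference of Setd1b was 1.05, and without the second that of Setd1a was -2.60. The rank correlation of the differences with GC content was -0.30 over the members and -0.25 over all genes.

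In vitro tagmentated and ligation-based libraries differed in 5 of the 10 members. This comparison crosses the split in Hprt and Ftl1, so library method and cell stock cannot be told apart. The paper also gives another sequencer and read length for the ligation-based libraries, which cannot be told apart from these either. Setd1a had 54.9 and 71.6 CPM in vitro at 37 °C for 5 min and 209 and 222 in the ligation-based libraries. Ash2l had 169 and 183 CPM against 648 and 639.6, and Rbbp5 71.4 and 82.2 against 141 and 132. Setd1b had 19.8 and 33.1 CPM against 53.4 and 63.9. The in vitro libraries were lower for these 4, with no overlap, and log2 fold changes of -1.56 (SE 0.23, adjusted p = 0.000340), -1.66 (SE 0.17, adjusted p = 2.66e-05), -0.62 (SE 0.17, adjusted p = 0.0124) and -0.96 (SE 0.27, adjusted p = 0.0125). Dpy30, with 241 and 293 against 173 and 167 CPM, was higher in vitro, by 0.86 (SE 0.16, adjusted p = 0.00162). These are 5 of 10 members, where 48.3% of 12425 genes passed, 23.2% higher and 25.1% lower in vitro, and the median was -0.48 over the members and -0.12 over all genes. Kmt2b (-0.51, adjusted p = 0.0512), Wdr5 (-0.44, adjusted p = 0.0579), Kmt2a (0.35), Kmt2c (-0.29) and Kmt2d (-0.14) did not pass. With the 300 ng in vitro libraries 6 members passed, where 70.5% of genes did. Without the first in vitro library the calls of Setd1b (-0.66) and Rbbp5 (-0.57) were lost. Without the second ligation-based library those of Setd1b (-0.85), Rbbp5 (-0.70) and Dpy30 (0.80) were lost.

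Cytoplasmic RNA of 10000 cells by SET-seq held less Kmt2a and Kmt2c than total RNA tagmentated in vitro. This comparison too crosses the split in Hprt and Ftl1, so RNA fraction and cell stock cannot be told apart. Kmt2a had 48.7 and 46.1 CPM in SET-seq against 194 and 146 in vitro, a log2 fold change of -1.70 (SE 0.20, adjusted p = 7.04e-05). Kmt2c had 28.7 and 32.1 CPM against 103 and 86.2, a log2 fold change of -1.51 (SE 0.18, adjusted p = 9.07e-05). Both were lower in both SET-seq libraries. Wdr5, with 581 and 570.4 against 349 and 292 CPM, and Ash2l, with 304 and 318 against 169 and 183, were higher in both, by 0.99 (adjusted p = 0.000940) and 0.96 (adjusted p = 0.000777). Kmt2d with 198 and 190.5 against 142 and 151 CPM (0.55, adjusted p = 0.0235), Setd1a with 97.0 and 78.4 against 54.9 and 71.6 (0.64, adjusted p = 0.0459), and Setd1b with 45.6 and 46.1 against 19.8 and 33.1 (0.96, adjusted p = 0.0135) were higher as well, without overlap. Kmt2b (-0.38, adjusted p = 0.141), Rbbp5 (-0.03) and Dpy30 (-0.01) did not pass. In all, 7 of 10 members passed, where 49.4% of genes did, 25.8% higher and 23.6% lower in SET-seq. The in vitro libraries are the same as in the comparison with ligation. Against the 300 ng in vitro libraries, 6 members passed (52.4% of genes) and Kmt2d had a difference of -0.011, Setd1a one of 0.06 (adjusted p = 0.823) and Kmt2b one of -1.11 (adjusted p = 0.000591), which passed. Over all 11 alternatives Setd1a lost its call in 7, with adjusted p of at least 0.0748, and Kmt2d in 5. Without the first in vitro library the calls of Kmt2d (0.52), Setd1a (0.46) and Setd1b (0.63) were lost. Of the other subunits, Men1 (2.44), which links Kmt2a and Kmt2b to chromatin, was the highest, and Bod1l (-3.81) and Psip1 (-2.69) the lowest. In these bulk samples less RNA per cell and fewer cells of a kind cannot be told apart.

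In SET-seq without antibody, Kmt2d, Kmt2b and Setd1a had lower CPM with fewer cells than 10000. Kmt2d had 11.9 and 10.6 CPM from 10 cells, 20.1 and 47.7 from 100, 32.6 and 66.5 from 1000, and 198 and 190.5 from 10000. Kmt2b had 9.47 and 0, 26.96 and 47.0, 31.2 and 51.1, and 102 and 85.8 CPM, and Setd1a 19.5 and 0, 28.0 and 24.6, 29.1 and 30.7, and 97.0 and 78.4. For these 3 genes both libraries of 10000 cells lay above all others. Kmt2a had 12.2 and 95.6 CPM from 10 cells and Setd1b 2.98 and 58.4, with 1 library on either side of the 10000 cell values. Kmt2c had means of 1.36 RPKM from 10 cells, 1.13 from 100, 2.14 from 1000 and 1.81 from 10000. Wdr5 had 576 and 1200.4 CPM from 10 cells, 474 and 781 from 100, 511 and 603 from 1000 and 581 and 570.4 from 10000. Ash2l had 541 and 483, 425 and 549, 417 and 368, and 304 and 318 CPM, with the 10000 cell libraries lowest.

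Between 10 and 10000 cells 0 members and 0% of 11916 genes passed by edgeR, 3 members and 2051 genes had an unadjusted p below 0.05, and DESeq2 called 3 members and 271 genes. The differences were -4.19 for Kmt2d, -3.75 for Kmt2b, -2.75 for Setd1a, -1.45 for Setd1b, -1.04 for Kmt2c and -0.45 for Kmt2a, with a median of -2.10, and 0.28 to 0.86 for the core genes, beside -0.38 for all genes. With 1 library of 10 cells left, Kmt2d had a difference of -4.76 without the first and -4.05 without the second. Kmt2b had -11.4 and -3.34, and Setd1a -11.3 and -2.20. On simulated data, 6% of genes with a 4-fold change passed. With 100 in place of 10 cells the medians were -1.56 for the catalytic and 0.44 for the core genes, beside -0.04 for all genes, and 0 members passed.

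In the antibody co-assays Kmt2d, Setd1a and Setd1b were also lower with 100 than with 10000 cells. Kmt2d had 41.4 and 55.1 CPM in the H3K4me3 co-assay of 100 cells, 96.1 and 82.6 with 1000 and 163 and 130.3 with 10000. In the H3K27me3 co-assay it had 43.0 and 57.1, 83.0 and 93.5, and 179 and 180.5 CPM. Setd1a had 27.2 and 33.2, 39.4 and 46.1, and 100.1 and 56.5 CPM with the H3K4me3 antibody, and 42.5 and 32.2, 48.6 and 61.0, and 87.3 and 97.6 with the H3K27me3 antibody. Within either antibody, both libraries of 10000 cells were above both of 100 cells for these 2 genes. Setd1b had 8.82 and 11.4 CPM with 100 and 37.3 and 35.2 with 10000 cells in the H3K4me3 co-assay, and 31.6 and 5.62 against 45.3 and 30.6, which overlap, in the H3K27me3 co-assay. For 100 against 10000 cells, the log2 fold changes were -1.57 for Kmt2d (SE 0.14, adjusted p = 2.19e-07), -1.18 for Setd1a (SE 0.18, adjusted p = 8.08e-05) and -1.22 for Setd1b (SE 0.38, adjusted p = 0.0291).

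These were 3 of 10 members, where 20.4% of 12124 genes passed and 9.16% were lower. Kmt2b, with 30.3 to 33.5 CPM against 53.0 to 58.2 in the H3K4me3 and 7.45 and 46.5 against 60.6 and 60.4 in the H3K27me3 co-assay, had a difference of -0.81 (adjusted p = 0.0890), which passed without either H3K27me3 library of 100 cells (-0.46 and -1.26). The call of Setd1b was lost without any 1 of 5 libraries, with adjusted p up to 0.0859. Kmt2a (0.19), Kmt2c (0.00) and the 4 core genes (-0.17 to 0.13) did not pass. The medians were -0.999 for the catalytic, -0.02 for the core and -0.05 for all genes. In the H3K27me3 libraries alone 2 members passed (8.34% of genes), and in the H3K4me3 libraries alone 3 (7.05%). Hcfc1 (-0.65) and Bod1 (-0.87) were lower and Bod1l (0.60) higher with 100 cells.

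Between the 2 antibodies, 0 members and 0% of genes passed by edgeR, 0 members and 375 genes had an unadjusted p below 0.05, and 0 genes passed by DESeq2. Kmt2d, for example, had 43.0 to 180.5 CPM (median 88.3, 6 libraries) with H3K27me3 and 41.4 to 163 CPM (median 89.3, 6 libraries) with H3K4me3. The differences of all members ranged from -0.11 for Dpy30 to 0.28 for Setd1a. On simulated data, 77% of genes with a 4-fold change and 59% of those with a 2-fold change passed.

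The co-assays with antibody were set against SET-seq without antibody at the matched 100, 1000 and 10000 cells. Kmt2c was higher with an antibody, with 41.2 to 64.2 CPM (median 54.7, 12 libraries) against 9.50 to 56.3 (median 28.6, 6 libraries), which overlapped. Wdr5 was lower with an antibody, with 313 to 463 CPM (median 416) against 474 to 781 (median 576), without overlap. The log2 fold changes were 1.12 for Kmt2c (SE 0.20, adjusted p = 7.13e-05) and -0.61 for Wdr5 (SE 0.09, adjusted p = 9.10e-06), 2 of 10 members where 37.7% of 12665 genes passed, 18.7% higher and 19% lower. Rbbp5 (0.25, adjusted p = 0.0573), Kmt2b (-0.43, adjusted p = 0.152), Kmt2a (0.32) and Kmt2d (0.27) did not pass. With 10000 cells alone 9 members passed, where 54% of genes did, and Kmt2a (-0.42) and Kmt2d (-0.44) then lay on the other side. Of the other subunits 9 of 12 passed, 6 higher and 3 lower.

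**Figure D3:**
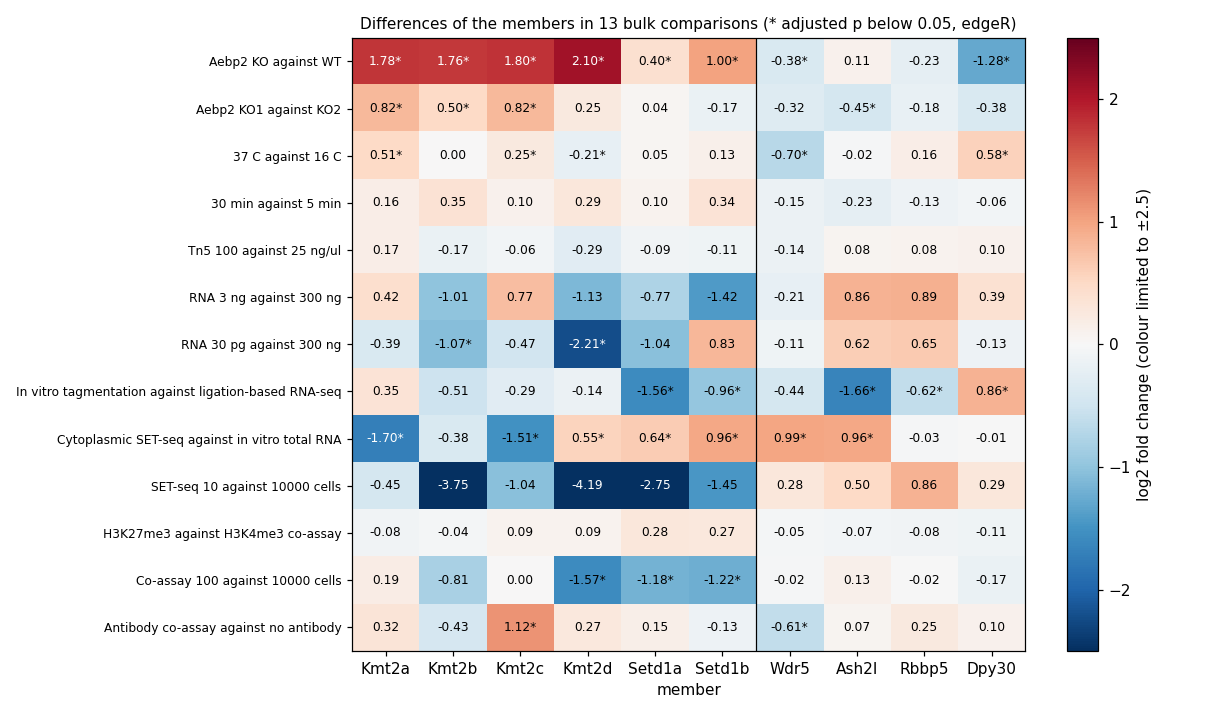
Log2 fold changes of the 10 members (columns, catalytic left and core right of the line) in 13 bulk comparisons (rows), in colour from blue (lower) to red (higher), with asterisks at an adjusted p below 0.05 by edgeR. The first row shows the 6 catalytic genes higher and Dpy30 at -1.28 in the knockout, and the rows of 3 ng RNA and of 10 and 100 cells show Kmt2b, Kmt2d, Setd1a and Setd1b lower.

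In several comparisons the fold changes of the members fell with the GC content of their exons, and in others they rose. For 100 against 10000 cells in the co-assays, the rank correlation of fold change with GC content was -0.68 over the 10 members and -0.22 over all genes, and it was -0.52 and -0.55 for 37 °C against 16 °C and -0.53 and -0.55 for antibody against none. The rank correlation was positive for 30 against 5 min (0.64 over the members and 0.38 over all genes) and between the antibodies (0.49 and 0.10). For cytoplasmic SET-seq against in vitro it was 0.27 and 0.42. In the knockout it was 0.27 and -0.19, where the correlation with length was the larger one. Genes are not independent replicates, so these values describe the members without a test.

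**Figure D4:**
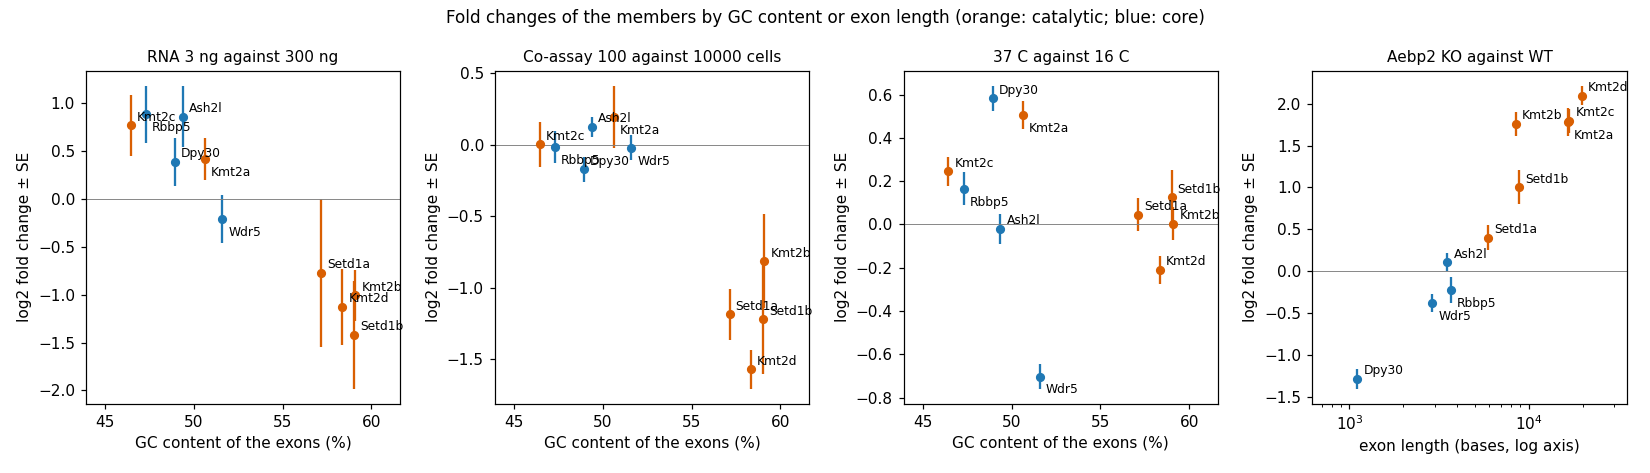
Log2 fold changes ± SE of the members by exon GC content (%) in 3 comparisons and by exon length (bases, log axis) in KO against WT, with catalytic genes in orange and core genes in blue. With 3 ng RNA and with 100 cells, the 4 genes above 57.0% G and C lie below 0, and in the knockout the values rise from -1.28 for Dpy30 (1108 bases) to 2.10 for Kmt2d (19827 bases).

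In single cells the members were sparse. Of 752 cells, 545 passed the filter of more than 1000 and fewer than 5000 genes, 335 with H3K27me3 and 210 with H3K4me3. The files name 96 distinct barcodes, 80 of which occur in more than 1 experiment. The counts are of reads, not molecules, and include introns, so levels of different genes were not compared per length, and intervals cover counting error only. A core gene was the most often detected, Dpy30 with a read in 42.9% of passing cells (Wilson 95% interval 38.8% to 47.1%), then Ash2l in 36.0% and Wdr5 in 27.7%. The catalytic genes were found in 14.1% (Kmt2c), 11.4% (Setd1a), 11.01% (Kmt2b), 8.07% (Kmt2a), 7.89% (Setd1b) and 7.34% (Kmt2d) of cells, and Rbbp5 in 8.99%. The fibroblast gene Col1a1 was found in 1.10% and the pluripotency gene Pou5f1 in 14.3%. The level of stray reads of the members was not measured. No member was seen in 168 cells, 226 cells had a read of a catalytic gene, 76 had reads of at least 2 catalytic genes, and the most members in 1 cell was 7.

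Several experiments stood apart. In the 165 passing cells of H3K27me3 experiments 8 to 10, Kmt2b, Setd1a, Setd1b and Rbbp5 were in 0 cells, as was Pou5f1, while Kmt2c was in 13.9% and Dpy30 in 16.4%. In the 170 cells of experiments 1 to 7 the shares were 13.5% for Kmt2b, 12.4% for Setd1a, 12.4% for Setd1b, 8.24% for Rbbp5, 16.5% for Kmt2c and 50.6% for Dpy30. One distal cell of experiment 10 held 194888 Ash2l counts, 95.003% of all Ash2l counts in passing cells. Between the marks, Ash2l was in 24.2% of H3K27me3 and 54.8% of H3K4me3 cells, Setd1a in 6.27% and 19.5%, and Kmt2c in 15.2% and 12.4%, at median depths of 198020 and 93762 counts, and no order is read from these shares.

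**Figure D5:**
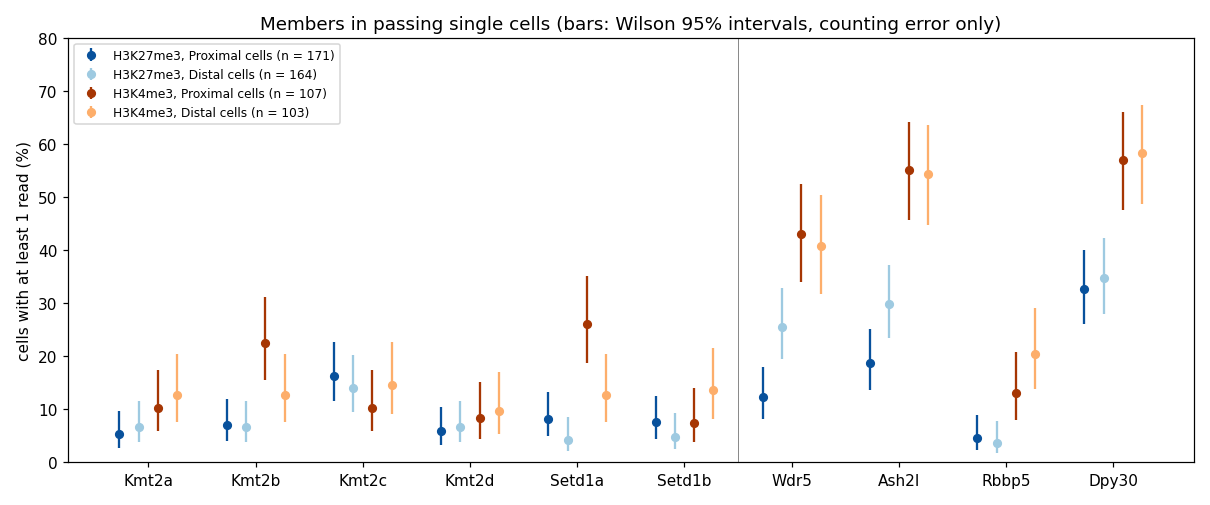
Share of passing single cells (%) with at least 1 read of each member, by mark and position relative to the Wnt3a bead, with Wilson 95% intervals as bars. Core genes other than Rbbp5 are seen most often, and the intervals of proximal and distal cells overlap for most members, with Wdr5 in H3K27me3 cells at 12.3% and 25.6%.

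Cells proximal to the bead were compared with distal ones on counts summed per experiment and position, 28 sums of 14 experiments, with the experiment as a block. By edgeR 0 of 10 members and 0% of 9980 genes passed. At an unadjusted p below 0.05 there were 2 members, Setd1a (log2 difference 2.68, SE 1.07, unadjusted p = 0.0188, adjusted p = 0.609) and Ash2l (-2.23, SE 1.05, unadjusted p = 0.0413, adjusted p = 0.7099), and 686 genes in all, and DESeq2 called 0 members. Without the cell rich in Ash2l, its difference was -2.07, and without H3K27me3 experiments 8 to 10 it was -1.05 and that of Setd1a 2.73, with 0 members called in either. In H3K4me3 cells Setd1a was found in 26.2% of proximal and 12.6% of distal cells, and Kmt2b in 22.4% and 12.6%, while in H3K27me3 cells the shares of Setd1a were 8.19% and 4.27%. For a difference of this effect between the marks, 0 of 10 members and 0% of genes passed by edgeR, 0 members passed by DESeq2, and 1 member, Ash2l, and 607 genes had an unadjusted p below 0.05. On simulated data 3% of genes with a 4-fold and 60% with a 16-fold difference between positions passed, so smaller differences were not detectable at this depth.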

How the data were processed

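The bulk files hold counts of read pairs per gene, deposited without normalization. The authors trimmed reads with Trim Galore 0.6.4, aligned them to mm9 with STAR 2.5.4b and counted pairs on the exons of 25209 genes with featureCounts 2.0.0 (2.0.1 for the knockout clones, per the file headers), without reads that map to several places. For the single cells the authors deposited read counts on exons and introns made with zUMIs. All count columns were used, and 0 were not mapped to a sample.

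Here Rn45s was left out, CPM and RPKM were calculated from the remaining total, and comparisons used edgeR 4.0.16 (TMM, filter on low counts, quasi-likelihood test, adjusted p below 0.05 after Benjamini-Hochberg over all genes tested, R 4.3.3). Alternatives were DESeq2 1.42.0, its size factors, no filter, a replicate block, libraries left out one at a time and other reference libraries. Single cells were kept if over 1000 but under 5000 genes were detected. Their positions came from the paper's tables, and counts were summed per experiment and position over at least 3 cells. No doublet caller was run, since cells were picked by hand.

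The text names all 10 members, and other subunits (12) and SET-domain methyltransferases outside the complexes (4) where they passed the test. Members and lists were chosen with earlier results of these data known. Base composition was read from the exons in the files on NCBIM37, the build of mm9. Levels over conditions were compared as log2(CPM + 1), with a pseudocount of 1.

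The study describes replicates as biologically independent. Between the 3 Tn5 amounts, residuals correlated at 0.63 to 0.74 for equal replicate numbers, so that these numbers pair the libraries, and the block called 0 members there. Intervals are Wilson 95% intervals and cover counting error only. Each fit was tested on simulated data with 200 changed genes: at 4-fold, 99% were recovered for KO against WT (9523 genes), 94% for KO1 against KO2 (9523), 100% for temperature (12297), 77% for in vitro against ligation (12425) and 72% for 100 against 10000 cells in the co-assays (12124). Python 3.11.15, numpy 2.4.6, pandas 2.3.3, scipy 1.17.1 and matplotlib 3.10.9 were used. Genomic libraries were not analysed here.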

Additional observations from a re-analysis of the deposited data

Results flagged for a closer look

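Shares of single cells with a read were examined per experiment for values far from the others of the same mark, in 20 sets. The rule used flags about 1 in 20 sets of equally precise values by chance. These shares come from 4 to 62 cells per experiment, so that rate need not hold here. In the 20 sets, 3 values stood out. Kmt2d was found in 87.5% of the cells of H3K27me3 experiment 2 (7 of 8 cells, next highest experiment 28.6%). Kmt2b was found in 37.8% of the cells of H3K27me3 experiment 6 (17 of 45 cells, next highest 14.3%). Setd1b was found in 36.4% of the cells of H3K4me3 experiment 6 (8 of 22 cells, next highest 10.9%). These experiments also had high medians of detected genes per cell, 4745, 3972 and 4191.5, and the part of this in the shares was not tested.

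The knockout clones KO1 and KO2 differed from each other in 4 members by edgeR's test, and this difference between 2 clonal lines and one in the effect of the knockout cannot be told apart. The log2 fold changes of KO1 against KO2 were 0.82 for Kmt2a, 0.50 for Kmt2b, 0.82 for Kmt2c and -0.45 for Ash2l. The call of Kmt2b was lost in 8 of 10 alternatives, including the replicate block (adjusted p = 0.0647). Aebp2 was also lower in KO1, with 15.7 and 15.0 CPM against 49.7 and 30.2 in KO2.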

How the results depend on the processing

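Over all comparisons 36 members passed their test, and of their 541 values under alternatives 472 kept direction and side of the threshold. Another 63 kept direction but no longer passed, and 6 changed sign and did not pass in the new direction. Of 1663 values of members that did not pass, 96 did. With in vitro libraries of total RNA in place of WT, chosen after seeing the data, the differences of the knockout changed. Kmt2a turned to -0.31 (37 °C, 5 min), -0.14 (300 ng RNA) and -0.0077 (16 libraries). Kmt2b turned to -0.16 (300 ng), and Rbbp5 to 0.51 (300 ng) and 0.46 (16 libraries). Kmt2d turned to 0.16 for 37 °C against 16 °C in the 5 min libraries, to -0.011 in cytoplasmic SET-seq against 300 ng in vitro, and to -0.44 for antibody against none with 10000 cells alone, where Kmt2a turned to -0.42. Dpy30 for 10 against 10000 cells ranged from -1.32 (without the first 10 cell library) to 0.94 with 1 library left out. The cause was not tested.

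The number of members passing moved to 2 without the filter and to 0 by the study's rule for KO1 against KO2, and to 3 for temperature in the 5 min libraries. For 30 against 5 min it was 1 with DESeq2, 1 without the filter and 2 with the replicate block. For 3 ng RNA it was 3 with DESeq2 and 8 without the 30 pg libraries, and for 30 pg RNA 1 with DESeq2's size factors, 1 without the filter and 0 with the replicate block. For SET-seq of 10 cells it was 3 with DESeq2, 2 without the filter and 1 with the replicate block, and for antibody against none 9 with 10000 cells alone. For proximal against distal cells it was 1 (Ash2l) without the filter and 1 (Ash2l) without the replicate block.

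Leaving out 1 library gave 5 to 8 members for KO against WT, 1 to 5 for KO1 against KO2, 5 to 6 for temperature, 0 to 3 for time, 0 to 0 for Tn5, 0 to 7 for 3 ng, 0 to 4 for 30 pg, 2 to 8 for ligation, 4 to 7 for cytoplasmic SET-seq, 0 to 5 for 10 cells, 0 to 0 for the antibodies, 2 to 4 for 100 cells in co-assays, 2 to 3 for antibody against none, and 0 to 0 for proximal against distal cells. For a library left alone in its group, the spread of the remaining groups was assumed. Residuals of equal replicate numbers correlated at up to 0.74 between Tn5 amounts. Elsewhere the highest value was 0.29, for temperature and time, where 4 of 28 pairs were over 0.1. The replicate block moved the number of members for 30 against 5 min, 30 pg RNA and SET-seq of 10 cells, as given above. It moved no other number by over 1.5 times. Depth limits the low libraries: with 188275 counts, 3 counts are 15.9 CPM. Kmt2d, Kmt2b and Setd1a lay below this level in that library, and Kmt2a and Setd1b above it.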

Other observations

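Levels of 3 genes outside the members are given here by condition. Bod1l, a Setd1-associated protein, had 282 and 288 CPM in vitro at 37 °C for 5 min, 158 and 163 in ligation-based RNA-seq, 20.1 and 16.5 in SET-seq of 10000 cells, 41.2 and 39.0 in WT, 205 and 188 in KO1, and 125 and 108 in KO2. Its SET-seq libraries were the lowest of these and its WT libraries lay below all knockout libraries. Ash1l, a SET-domain methyltransferase outside the complexes, had 56.0 and 51.7 CPM in vitro, 61.6 and 69.1 with ligation, 13.7 and 18.4 in SET-seq of 10000 cells, 29.1 and 27.3 in WT, 79.5 and 104 in KO1, and 72.6 and 54.3 in KO2. Men1, which links Kmt2a and Kmt2b to chromatin, was lower in vitro than in either of the next sets, with 14.3 and 15.9 CPM at 37 °C for 5 min against 114 and 115 with ligation and 75.1 and 72.3 in SET-seq of 10000 cells. These genes were named after their values were seen. Between in vitro or knockout libraries and the other sets, cell stock and condition cannot be told apart.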
